A study of Drosophila melanogaster with 16 samples.

Results

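The genes described here are 10 enzymes of glycolysis in the embryo of the fruit fly Drosophila melanogaster, from phosphofructokinase to lactate dehydrogenase: Pfk, Ald1, Tpi, Gapdh1, Gapdh2, Pgk, Pglym78, Eno, PyK and Ldh. Earlier results of these data were known when the enzymes were chosen. The choice was by name, as the probe sets whose identifiers lead to these symbols, and the rule used no measured value. This gave 14 of the 14038 probe sets that are not controls, and 10 of the 11298 genes that the identifiers name. Ald1 has 4 of these probe sets, Pfk has 2 and the other genes have 1 each. RNA of pooled whole embryos was measured on 16 single-colour oligonucleotide arrays. Embryos of all groups are given as stages 10 to 17. The 5 arrays of untreated wild type (strain Oregon-R) stand beside 3 arrays of heat-shocked wild type (Oregon-R). The heat-shocked hsp-otd group (4 arrays) is the single line 5A, in which a heat shock promoter drives the fly head-patterning homeobox gene otd, now called oc. The heat-shocked hsp-Otx2 group (4 arrays) carries the human relative of that gene, Otx2, in the same way. In all 3 heat-shocked groups a 12 h egg collection was aged for 4 h, warmed to 37 °C for 25 min and given 25 min of recovery at 25 °C. For untreated wild type neither the collection nor the ageing is stated, so an effect of heat cannot be told apart from one of collection. Such a promoter acts in the whole embryo, and embryos of either line without heat shock were not analysed here.

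Glycolysis splits glucose into pyruvate and yields ATP and NADH on the way. In Drosophila embryos the genes of the pathway are switched on together in mid-embryogenesis by the nuclear receptor ERR, ahead of the sugar-burning growth of the larva. Lactate dehydrogenase ends the pathway by turning pyruvate into lactate, which returns NADH to the NAD+ that the glyceraldehyde 3-phosphate dehydrogenase step needs. In the fly embryo transcripts of several of these enzymes are abundant in the developing muscle.

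Values are normalized intensities, which have no absolute unit, and a level of 1 probe set cannot be set against that of another. Fold changes are differences of mean log2 intensity with a standard error (SE). A gene is said to have risen, fallen or changed where limma's Benjamini-Hochberg adjusted p over all 12301 tested probe sets was below 0.05. The number of arrays limits the precision, and p-values cover only how arrays of a group vary, which may be technical, as nothing says that replicates came from separate embryo collections. The transgene's own transcript oc lay between 6213 and 6448 in hsp-otd and at or below 234.9 in every other array. Mean deposited intensity was 785.9 to 997.8 in hsp-otd and 460.2 to 650.2 in heat-shocked wild type, so in that comparison array brightness and group cannot be told apart. It was 598.7 to 999.1 in untreated wild type and 609.3 to 1016 in hsp-Otx2. All comparisons with heat-shocked wild type share its 3 arrays, and all with untreated wild type share its 5.

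The enzymes did not move as a block in any of the 6 comparisons. Gapdh2 was lower in hsp-otd than in every other group, Ldh was lower in hsp-Otx2 than in every other group, and Eno was higher in heat-shocked wild type than in every other group. Tpi and Gapdh1 were higher in hsp-Otx2 than in the other heat-shocked groups, and Pfk was lower in all 3 heat-shocked groups than in untreated wild type. PyK passed only between the 2 lines, and Ald1 (by its brightest probe set), Pgk and Pglym78 passed in no comparison. In all, 18 of 60 fold changes of the enzymes passed, where 22.5% to 40% of all probe sets passed in the 6 comparisons. The 18 changes were small, from 0.37 to 0.74 on the log2 scale in absolute size. Each was measured in whole embryos, where fewer cells of a type and less RNA per cell cannot be told apart.

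**Figure D1:**
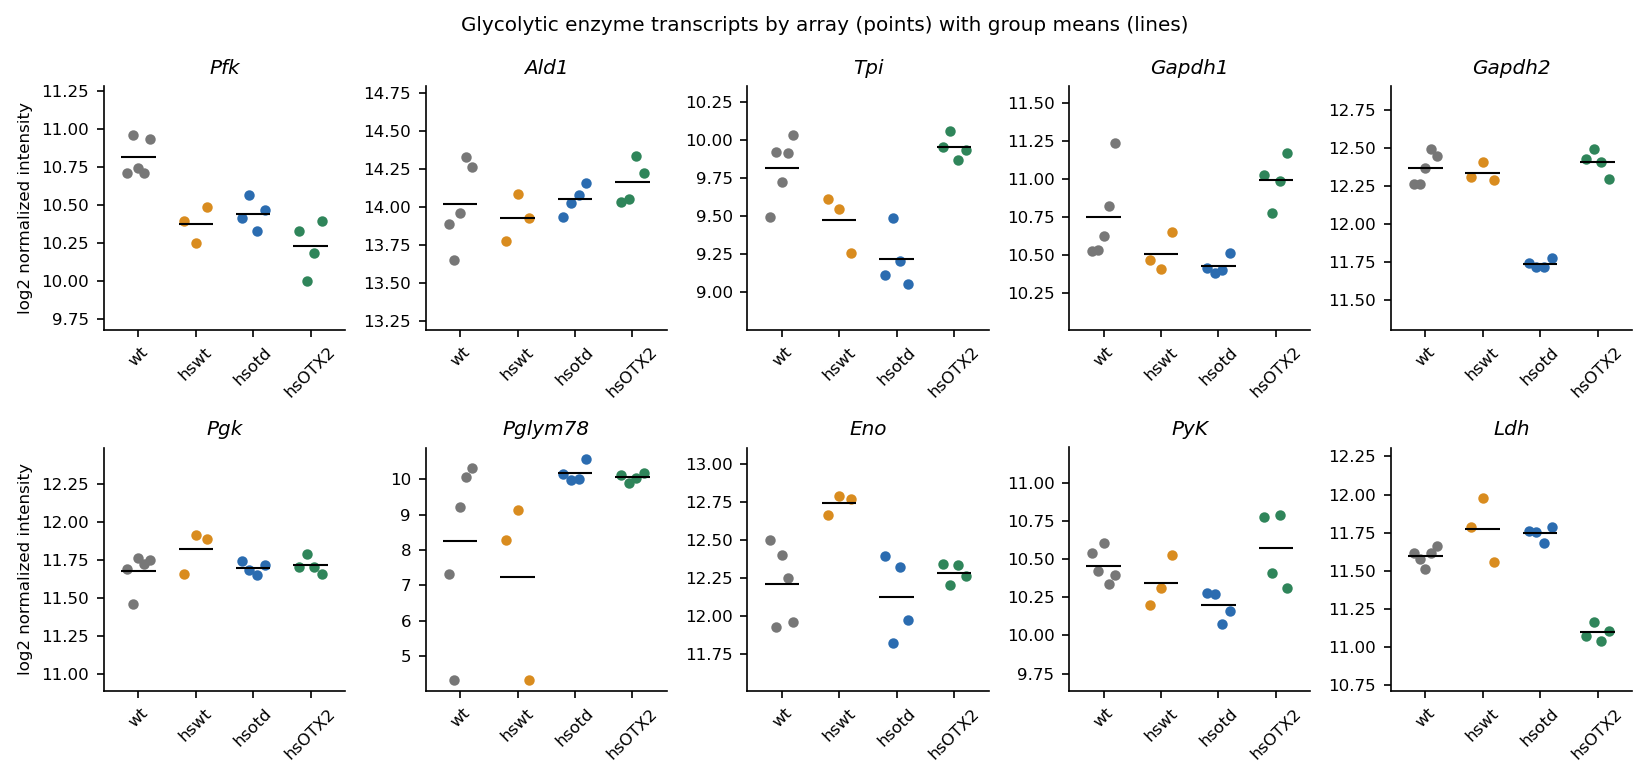
Log2 normalized intensity of the 10 enzymes, 1 point per array, in untreated (wt) and heat-shocked (hswt) wild type, hsp-otd (hsotd) and hsp-Otx2 (hsOTX2), with a line at each group mean; the Pglym78 panel has a wider scale and shows arrays at the floor. On the linear scale Gapdh2 is low in the 4 hsp-otd arrays (3367 to 3502), Ldh in the 4 hsp-Otx2 arrays (2107 to 2288), and Eno is high in the 3 arrays of heat-shocked wild type (6492 to 7080).

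Between heat-shocked and untreated wild type, 1 of the 10 enzymes rose (Eno) and 1 fell (Pfk). Of all tested probe sets 22.5% changed, 10.3% upward and 12.2% downward, so the share of enzymes was near the background. The median log2 fold change of the 10 was -0.10, beside 0.01 for all probe sets. The groups did not overlap for 2 of the 10, and for 20.1% of all probe sets.

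Between hsp-otd and heat-shocked wild type, 2 of the 10 fell (Gapdh2 and Eno) and none rose, where 29.3% of all probe sets changed (15.8% upward and 13.6% downward). The median of the 10 was -0.10, beside -0.0038 for all probe sets. For 3 of the 10, and for 38.1% of all probe sets, the groups did not overlap.

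Between hsp-Otx2 and heat-shocked wild type, 4 of the 10 changed. Tpi and Gapdh1 rose, and Eno and Ldh fell. Of all probe sets 37.2% changed, 17.5% upward and 19.7% downward. The median of the 10 was 0.15, beside -0.13 for all probe sets. The groups did not overlap for 5 of the 10 and for 41.7% of all probe sets.

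The 2 lines, which share the heat shock, differed in 5 of the 10. Tpi, Gapdh1, Gapdh2 and PyK were lower in hsp-otd, and Ldh was higher there. Of all probe sets 29.5% differed, 15.7% being higher and 13.8% lower in hsp-otd. The median of the 10 was -0.13, beside 0.02 for all probe sets. The groups did not overlap for 5 of the 10, with 39.2% of all probe sets. The count depends on the choice of probe set. With the mean of all probe sets of a gene, 2 of the 10 were higher and 5 lower in hsp-otd, beside 29.9% changed in all. That setting added Ald1 (-0.35, adjusted p = 0.00548) and Pfk (0.27, adjusted p = 0.0396).

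Against untreated wild type, 3 of the 10 fell in hsp-otd (Pfk, Tpi and Gapdh2) and none rose, with 29.6% of all probe sets changed (15.7% upward and 13.9% downward). In hsp-Otx2, 2 of the 10 fell (Pfk and Ldh) and none rose, with 40% changed (18.5% upward and 21.4% downward). The medians of the 10 were -0.17 and 0.09, beside -0.01 and -0.12 for all probe sets. The groups did not overlap for 6 of the 10 in hsp-otd (27.9% of all probe sets) and for 2 of the 10 in hsp-Otx2 (34.7%). Both comparisons differ in heat shock as well as in genotype.

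**Figure D2:**
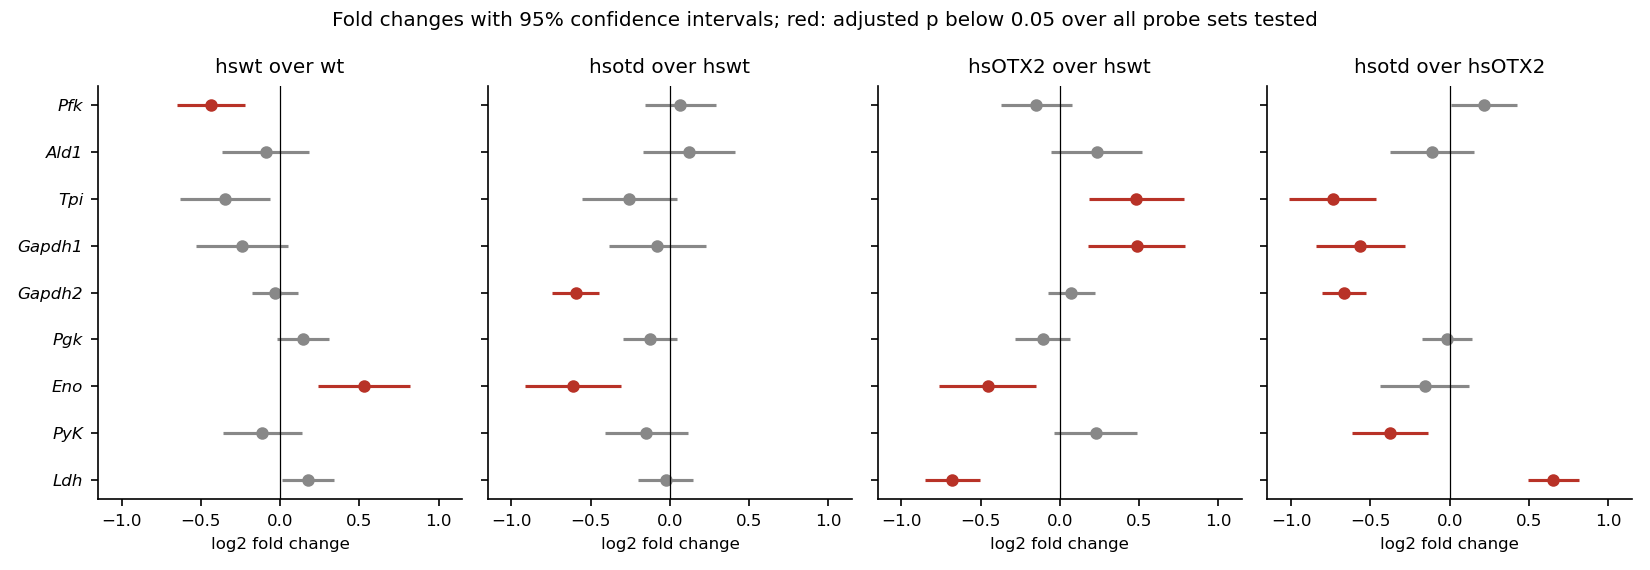
Log2 fold change of 9 enzymes in 4 comparisons (heat-shocked over untreated wild type, each line over the former, and between the lines), with 95% confidence intervals; red points passed at an adjusted p below 0.05, and Pglym78 is left out because its intervals are wider than the axis. The points of Gapdh2 in hsp-otd and of Ldh in hsp-Otx2 stand away from 0, while those of Pgk stay between -0.13 and 0.14.

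Phosphofructokinase, encoded by Pfk, catalyses the committed step of the pathway, the addition of the second phosphate to fructose 6-phosphate. Its brighter probe set, PFK_at, read 1678, 1998, 1712, 1678 and 1961 in untreated wild type and 1348, 1219 and 1434 in heat-shocked wild type. It read 1365, 1514, 1285 and 1415 in hsp-otd and 1290, 1025, 1166 and 1347 in hsp-Otx2. All 11 heat-shocked arrays lay below all 5 untreated ones, and the 3 heat-shocked groups overlapped one another. Pfk fell by 0.44 (SE 0.10, adjusted p = 0.00522) in heat-shocked wild type. It also fell by 0.37 (SE 0.09, adjusted p = 0.00662) in hsp-otd and by 0.58 (SE 0.09, adjusted p = 7.97e-05) in hsp-Otx2, each against the same untreated arrays. The call in heat-shocked wild type was lost without normalization (-0.90, adjusted p = 0.0586) and when only arrays with a mean deposited intensity below 700 were used (-0.42, adjusted p = 0.0763), in neither case with a much smaller fold change. That in hsp-otd was lost with median scaling (-0.21, adjusted p = 0.112) and without normalization (0.053, of the other sign).

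The other probe set of Pfk, PFK-CDS-1_at, read 1681 to 1764 in untreated wild type, 1234 to 1620 in heat-shocked wild type, 1127 to 1424 in hsp-otd and 895 to 1283 in hsp-Otx2. Here too every heat-shocked array lay below every untreated one. The log2 fold change in heat-shocked wild type was -0.31 (SE 0.12) and did not pass (adjusted p = 0.0866). Unlike PFK_at, this probe set fell in hsp-Otx2 against heat-shocked wild type, by 0.42 (SE 0.13, adjusted p = 0.0170), and was 0.33 higher in hsp-otd than in hsp-Otx2 (SE 0.12, adjusted p = 0.0470). For PFK_at these differences were -0.15 (adjusted p = 0.297) and 0.21 (adjusted p = 0.122), of the same sign.

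Aldolase, encoded by Ald1, cleaves fructose 1,6-bisphosphate into the triose phosphates, and the gene makes several isoforms through alternative last exons. Its brightest probe set, ALD_s_at, read 12911 to 20558 in untreated wild type, with a median of 15992, and 14029, 17424 and 15579 in heat-shocked wild type. It read 15682, 16718, 17337 and 18274 in hsp-otd and 16808, 17016, 20696 and 19192 in hsp-Otx2. All groups overlapped, and its fold changes, from -0.11 to 0.23, did not pass in any of the 6 comparisons. The 95% interval of the difference between the lines was -0.38 to 0.15.

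The other Ald1 probe sets did pass, and not in the same direction. ALD-CDS-1_at read 3555 to 4789 in untreated and 5238 to 6160 in heat-shocked wild type, so it rose by 0.45 (SE 0.10, adjusted p = 0.00273). ALD_i_at read 9727 to 13879 and 8467 to 9039 in the same arrays, so it fell by 0.36 (SE 0.12, adjusted p = 0.0431). In each case the groups were separate, so probe sets named for 1 gene went opposite ways. ALD_r_at did not pass there (-0.08, adjusted p = 0.425).

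In hsp-Otx2 against heat-shocked wild type ALD_i_at rose by 0.54 (SE 0.13, adjusted p = 0.00359) and ALD_r_at by 0.29 (SE 0.07, adjusted p = 0.00477), while ALD-CDS-1_at fell by 0.29 (SE 0.10, adjusted p = 0.0308). In hsp-otd against the same arrays ALD-CDS-1_at fell by 0.58 (SE 0.10, adjusted p = 0.000542) and ALD_r_at by 0.21 (SE 0.07, adjusted p = 0.0380), and ALD_i_at did not pass (0.05, adjusted p = 0.810). Between the lines these 3 probe sets were all lower in hsp-otd, and in none did the lines overlap. The differences were -0.50 for ALD_r_at (SE 0.07, adjusted p = 2.13e-05), -0.49 for ALD_i_at (SE 0.12, adjusted p = 0.00462) and -0.28 for ALD-CDS-1_at (SE 0.09, adjusted p = 0.0297). Which transcripts each probe set reads was not analysed here. These identifiers begin with ALD, which is also an older name of Ald2 and of Mps1, each of which has 1 probe set of its own on the array, so the link to Ald1 is by name alone.

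Set against the untreated arrays, ALD_r_at fell by 0.29 in hsp-otd (SE 0.06, adjusted p = 0.00218) and rose by 0.20 in hsp-Otx2 (SE 0.06, adjusted p = 0.0155). ALD_i_at fell by 0.32 in hsp-otd (SE 0.11, adjusted p = 0.0455) and stood at 0.17 in hsp-Otx2, which did not pass (adjusted p = 0.244). ALD-CDS-1_at passed in neither.

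**Figure D3:**
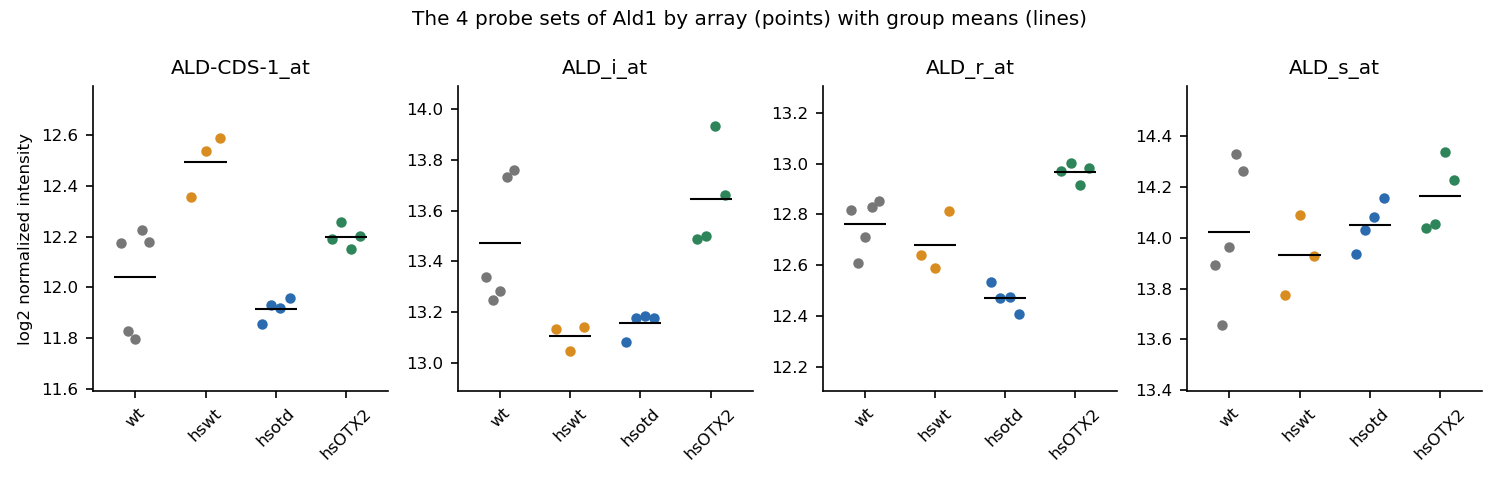
Log2 normalized intensity of the 4 probe sets named for Ald1 in each of the 16 arrays, 1 point per array by group, with a line at each group mean. ALD-CDS-1_at is higher and ALD_i_at lower in heat-shocked than in untreated wild type, while the groups overlap for ALD_s_at.

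Triose phosphate isomerase, encoded by Tpi, turns the other product of aldolase into glyceraldehyde 3-phosphate. It read 722, 972, 847, 966 and 1050 in untreated wild type and 784, 748 and 612 in heat-shocked wild type. It read 555, 718, 591 and 532 in hsp-otd and 995, 1066, 937 and 980 in hsp-Otx2. Every hsp-Otx2 array lay above every other heat-shocked array, and every hsp-otd array below every untreated one. Tpi was lower in hsp-otd than in hsp-Otx2 by the largest difference among the 10 enzymes that passed, -0.74 (SE 0.13, adjusted p = 0.000336). It fell by 0.60 in hsp-otd against untreated wild type (SE 0.12, adjusted p = 0.00146). In hsp-Otx2 against heat-shocked wild type it rose by 0.48 (SE 0.14, adjusted p = 0.0129). That rise no longer passed when replicate 3 of the heat-shocked wild type was left out (0.38, adjusted p = 0.0683) or with array brightness as a covariate (0.36, adjusted p = 0.0864). Nor did it pass in arrays with a mean below 700 (0.51, adjusted p = 0.0776). The fold change in hsp-otd against heat-shocked wild type was -0.26, with an interval from -0.55 to 0.04, and did not pass (adjusted p = 0.183).

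Glyceraldehyde 3-phosphate dehydrogenase makes the NADH of the pathway and is encoded by Gapdh1 and Gapdh2. Their coding sequences are closely alike, and how far each probe set reads the other gene was not tested. Gapdh2 read 4904, 4914, 5286, 5751 and 5591 in untreated wild type, 5068, 5432 and 4999 in heat-shocked wild type and 5510, 5771, 5422 and 5027 in hsp-Otx2. In hsp-otd it read 3433, 3371, 3367 and 3502. The hsp-otd arrays lay below all 12 others, and the other groups overlapped. Geometric means were 5278, 5163 and 5426 in the other groups in that order and 3418 in hsp-otd. The log2 fold changes of hsp-otd were -0.60 against heat-shocked wild type (SE 0.07, adjusted p = 1.64e-05), -0.67 against hsp-Otx2 (SE 0.07, adjusted p = 7.11e-07) and -0.63 against untreated wild type (SE 0.06, adjusted p = 9.56e-07). With the log2 of array brightness as a covariate, an alternative added after the data were seen, the first was -0.65 (adjusted p = 0.000170). Brightness does not overlap between hsp-otd and heat-shocked wild type, so that value extrapolates and cannot separate brightness from group. Without normalization the first was 0.33, of the other sign, and did not pass (adjusted p = 0.409), while the median of all probe sets was 0.68.

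Gapdh1 did not follow Gapdh2 in every comparison. It read 1479, 1482, 1582, 1810 and 2419 in untreated wild type and 1414, 1358 and 1607 in heat-shocked wild type. It read 1365, 1335, 1356 and 1461 in hsp-otd and 2091, 1758, 2028 and 2306 in hsp-Otx2. The hsp-Otx2 arrays lay above all other heat-shocked arrays, whereas hsp-otd and heat-shocked wild type overlapped. Gapdh1 rose by 0.48 in hsp-Otx2 against heat-shocked wild type (SE 0.14, adjusted p = 0.0142), a call lost without replicate 2 of the latter (0.44, adjusted p = 0.0561) and with array brightness as a covariate (0.32, adjusted p = 0.107). Arrays with a mean below 700 lost it too (0.39, adjusted p = 0.0582). Gapdh1 was lower in hsp-otd than in hsp-Otx2, with a difference of -0.56 (SE 0.13, adjusted p = 0.00365). In hsp-otd its fold change was -0.08 against heat-shocked wild type (interval -0.38 to 0.22, adjusted p = 0.715), where that of Gapdh2 was -0.60. Against untreated wild type Gapdh1 stood at -0.32 in hsp-otd (SE 0.13, adjusted p = 0.0658), and these groups did not overlap. This did not pass in the main fit, but passed in 5 of 21 alternatives.

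Markers of somatic muscle and of midgut were read beside these enzymes, and the other marker lists are given further below. Of 10 somatic muscle markers 6 fell and none rose in hsp-otd against heat-shocked wild type, with a median of -0.41. Of all probe sets 13.6% fell there. Between the lines 7 were lower and none higher in hsp-otd, with a median of -0.63, beside 13.8% of all probe sets lower. Against untreated wild type 6 fell and none rose in hsp-otd, with a median of -0.52, beside 13.9% of all probe sets lower. In heat-shocked wild type and in hsp-Otx2, against the same untreated arrays, 1 of the 10 markers rose and 2 fell. Their summed intensity ran from 58952 to 61938 in hsp-otd, 62227 to 70373 in heat-shocked wild type, 67422 to 72491 in hsp-Otx2 and 69947 to 73296 in untreated wild type. In hsp-Otx2 against heat-shocked wild type none of the 10 changed, where Tpi and Gapdh1 rose. Midgut markers were lower in hsp-otd than in hsp-Otx2 in 5 of 5, with a median of -1.87, and 4 of 5 rose in hsp-Otx2 against heat-shocked wild type, with a median of 2.03. Each muscle marker lay above the floor in some array of each group. The part of either list in the enzymes' changes was not tested.

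Phosphoglycerate kinase, encoded by Pgk, makes the first ATP of the pathway. It read 3311, 2822, 3478, 3376 and 3450 in untreated wild type, 3238, 3864 and 3798 in heat-shocked wild type, 3427, 3286, 3214 and 3364 in hsp-otd and 3330, 3534, 3344 and 3238 in hsp-Otx2. All groups overlapped. Its fold changes lay between -0.13 and 0.14 and did not pass in any of the 6 comparisons. The intervals were narrow: -0.02 to 0.31 for heat-shocked against untreated wild type, -0.30 to 0.05 for hsp-otd and -0.28 to 0.06 for hsp-Otx2 against heat-shocked wild type, and -0.18 to 0.14 between the lines.

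Phosphoglycerate mutase, encoded by Pglym78, shifts the phosphate of 3-phosphoglycerate to the next carbon. It was the least evenly measured of the 10 and was not above the floor of 20 in every array. It read 160.1, -6.75, 598, 1068 and 1277 in untreated wild type and 312, 561 and -59.9 in heat-shocked wild type. It read 1140, 1018, 1036 and 1544 in hsp-otd and 1108, 961, 1049 and 1174 in hsp-Otx2. All 8 arrays of the lines lay above the 3 of heat-shocked wild type and within or above the range of untreated wild type. The untreated arrays at 1068 and 1277 were the bright ones, with mean deposited intensities of 950.6 and 999.1. The other untreated arrays had means of 598.7 to 662.2, and the split within this group was not tested as such. Brightness as a covariate, and subsets of arrays by brightness, were run as alternatives on the group comparisons only. Against untreated wild type, over all alternatives, fold changes ran from -0.0025 to 2.46 in hsp-otd and from -0.076 to 2.87 in hsp-Otx2. None of these passed. The fold changes against heat-shocked wild type, 2.94 in hsp-otd (SE 1.18, adjusted p = 0.0726) and 2.82 in hsp-Otx2 (SE 1.18, adjusted p = 0.0729), did not pass. Both passed without replicate 2 of heat-shocked wild type, at 3.90 (adjusted p = 0.0396) and 3.77 (adjusted p = 0.0358), and with a floor of 50, at 2.50 (adjusted p = 0.0465) and 2.38 (adjusted p = 0.0480). With only the compared groups fitted they also passed (adjusted p = 0.0492 and 0.0476). Over all alternatives the fold change against heat-shocked wild type ran from 0.66 to 3.90 in hsp-otd, where 4 of 17 passed. In hsp-Otx2 it ran from 1.35 to 3.77, and 3 of 18 passed. A group mean that takes in an array at the floor depends on that floor.

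Enolase, encoded by Eno, makes phosphoenolpyruvate. It read 5787, 3908, 5422, 4886 and 3994 in untreated wild type, 6492, 7080 and 6988 in heat-shocked wild type, 5383, 3635, 5118 and 4025 in hsp-otd and 5189, 4714, 5175 and 4917 in hsp-Otx2. The 3 arrays of heat-shocked wild type lay above all 13 others, which overlapped among their groups. Eno rose by 0.53 in heat-shocked against untreated wild type (SE 0.14, adjusted p = 0.0104). Against heat-shocked wild type it fell by 0.61 in hsp-otd (SE 0.14, adjusted p = 0.00483) and by 0.46 in hsp-Otx2 (SE 0.14, adjusted p = 0.0198). All 3 calls rest on the same 3 arrays, and those arrays include the dimmest of the series. With median scaling in place of quantile normalization none of the 3 passed, at 0.43 (adjusted p = 0.0642), -0.41 (adjusted p = 0.0719) and -0.32 (adjusted p = 0.154). Without normalization the differences in hsp-otd and in hsp-Otx2 were 0.26 and 0.063, of the other sign. With array brightness as a covariate the calls in hsp-otd (-0.45, adjusted p = 0.132) and in hsp-Otx2 (-0.35, adjusted p = 0.109) were lost, and the rise in heat-shocked wild type was kept (0.44, adjusted p = 0.0444). That rise was lost in arrays with a mean below 700 (0.49, adjusted p = 0.0565) and without normalization (0.020, adjusted p = 0.983). The call in hsp-Otx2 was also lost without replicate 2 (-0.43, adjusted p = 0.0604) or replicate 3 (-0.44, adjusted p = 0.0581) of that wild type, with little change in size.

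Pyruvate kinase, encoded by PyK, makes pyruvate and ATP. It read 1489, 1370, 1557, 1293 and 1346 in untreated wild type, 1177, 1272 and 1476 in heat-shocked wild type, 1242, 1236, 1081 and 1145 in hsp-otd and 1759, 1360, 1772 and 1271 in hsp-Otx2. The lines did not overlap, though their nearest arrays stood at 1242 and 1271. PyK was lower in hsp-otd than in hsp-Otx2, with a difference of -0.38 (SE 0.11, adjusted p = 0.0190). The call was lost without replicate 3 of hsp-otd (-0.34, adjusted p = 0.0613), and without replicate 1 (-0.31, adjusted p = 0.0720) or replicate 3 (-0.30, adjusted p = 0.0726) of hsp-Otx2. It was also lost in arrays with a mean above 700 (-0.36, adjusted p = 0.0620) and without normalization (-0.11, adjusted p = 0.840). Against heat-shocked wild type the fold changes of PyK were -0.15 in hsp-otd and 0.23 in hsp-Otx2, and neither passed.

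Lactate dehydrogenase, encoded by Ldh (older name ImpL3, probe set CG10160_at), turns pyruvate into lactate. It read 3138, 3056, 2917, 3138 and 3238 in untreated wild type, 3534, 4031 and 3007 in heat-shocked wild type and 3475, 3460, 3283 and 3539 in hsp-otd. In hsp-Otx2 it read 2152, 2288, 2107 and 2203. The hsp-Otx2 arrays lay below all 12 others. Every hsp-otd array lay above every untreated one, and both groups overlapped heat-shocked wild type. Geometric means were 3096, 3499 and 3438 in the other groups in that order and 2186 in hsp-Otx2. Ldh fell by 0.68 in hsp-Otx2 against heat-shocked wild type (SE 0.08, adjusted p = 7.96e-06), which is 1.60-fold, and by 0.50 against untreated wild type (SE 0.07, adjusted p = 2.70e-05). It was 0.65 higher in hsp-otd than in hsp-Otx2 (SE 0.08, adjusted p = 4.77e-06). That difference passed under every alternative run, with values from 0.62 to 0.95, and was the only one of the 18 to do so. The fall against heat-shocked wild type was lost only without normalization. In hsp-otd the fold change was -0.03 against heat-shocked wild type (interval -0.20 to 0.15, adjusted p = 0.847).

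Ratios of deposited intensities within each array need no scaling between arrays. The pairs were chosen after their values were seen, so the ratios restate the pattern above as a description, and they do not tell which gene of a pair is high or low. The log2 ratio of Ldh to Gapdh2 was 0.02, 0.03, -0.03 and 0.01 in hsp-otd and -1.35, -1.26, -1.30 and -1.14 in hsp-Otx2. It was -0.51, -0.44 and -0.69 in heat-shocked wild type and -0.67, -0.71, -0.92, -0.88 and -0.81 in untreated wild type. The hsp-otd arrays lay above all others and the hsp-Otx2 arrays below all others, and the wild-type groups overlapped. A constant offset between the probe sets cancels when arrays are compared, so it is the differences between groups and not the ratio itself that can be read. The log2 ratio of Ldh to PyK ran from 1.46 to 1.63 in hsp-otd and from 0.26 to 0.77 in hsp-Otx2, with the wild-type arrays between 0.94 and 1.62.

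The ratio of Gapdh1 to Gapdh2 put the same arrays in another order. Its log2 value ran from -1.36 to -1.24 in hsp-otd, from -1.63 to -1.08 in hsp-Otx2, from -1.99 to -1.61 in heat-shocked wild type and from -1.84 to -1.22 in untreated wild type. The lines overlapped each other, and hsp-otd lay above heat-shocked wild type in every array.

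**Figure D4:**
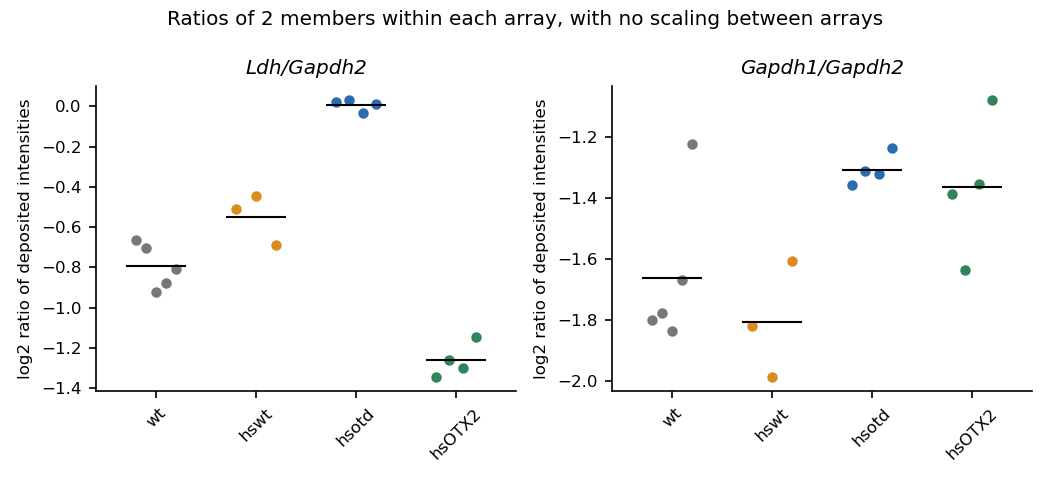
Log2 ratio of deposited intensities of 2 enzymes within each array, 1 point per array by group, with a line at the group mean; no scaling between arrays enters. For Ldh over Gapdh2 the hsp-otd arrays lie near 0, the hsp-Otx2 arrays between -1.35 and -1.14, and the wild-type arrays between -0.92 and -0.44.

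Enzymes that feed sugar into the pathway were read from a list of 6 genes, 5 of them tested. Pgi, which makes fructose 6-phosphate ahead of Pfk, rose by 0.91 in heat-shocked against untreated wild type (SE 0.10, adjusted p = 3.93e-06), where Pfk fell. It fell in hsp-otd by 0.34 (SE 0.10, adjusted p = 0.0206) and in hsp-Otx2 by 0.60 (SE 0.10, adjusted p = 0.000226), each against heat-shocked wild type, and no other gene of the list passed in these comparisons. Against untreated wild type it rose by 0.57 in hsp-otd (SE 0.09, adjusted p = 0.000146) and by 0.31 in hsp-Otx2 (SE 0.09, adjusted p = 0.0123). Between the lines it was 0.27 higher in hsp-otd (SE 0.10, adjusted p = 0.0453). The hexokinase gene Hex-A rose in heat-shocked wild type by 2.31 (SE 0.79, adjusted p = 0.0472) and in hsp-Otx2 by 2.29 (SE 0.73, adjusted p = 0.0188), both against untreated arrays of which only 2 lay above the floor. The list thus counted 2 higher and none lower in heat-shocked against untreated wild type.

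Paralogues of the 10 enzymes were weakly measured. Of 8 with a probe set 6 were tested, and their summed intensity stayed between 261.0 and 878.6 in all arrays. CG7069, a second pyruvate kinase gene, rose in heat-shocked wild type by 1.91 (SE 0.35, adjusted p = 0.000899). It was at the floor in all 8 arrays of the lines, at least 4.80-fold lower than in heat-shocked wild type (adjusted p = 0.000313 for hsp-otd and 0.000163 for hsp-Otx2). Ald2 was at the floor in all 4 hsp-Otx2 arrays, and above it in 2 of the 3 arrays of heat-shocked wild type (adjusted p = 0.0434). CG2964 fell in hsp-otd against untreated wild type (-1.99, SE 0.61, adjusted p = 0.0215), with 1 of 4 arrays above the floor. Between the lines, and in hsp-Otx2 against untreated wild type, none of the 6 passed.

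Of the genes of glycogen and trehalose metabolism 6 were tested. Glys, glycogen synthase, rose in hsp-Otx2 by 1.23 (SE 0.07, adjusted p = 1.2e-09) and in hsp-otd by 0.33 (SE 0.07, adjusted p = 0.00175), each against heat-shocked wild type. Tps1, which makes trehalose, the blood sugar of insects, rose in the same comparisons by 0.53 (SE 0.11, adjusted p = 0.000998) and 0.93 (SE 0.11, adjusted p = 1.24e-05). Between the lines Glys was lower in hsp-otd (-0.90, SE 0.06) and Tps1 was higher there (0.40, SE 0.10). The phosphoglucomutase gene Pgm1, which links glycogen to glucose 6-phosphate, fell in hsp-Otx2 against heat-shocked wild type (-0.54, SE 0.12, adjusted p = 0.00164) and was 0.56 higher in hsp-otd than in hsp-Otx2 (SE 0.11, adjusted p = 0.000719). Glyp, glycogen phosphorylase, fell by 0.36 in hsp-otd against heat-shocked wild type (SE 0.11, adjusted p = 0.0234), and UGP, which makes the sugar donor for glycogen, fell by 2.56 in hsp-Otx2 (SE 0.69, adjusted p = 0.00784), where 3 of 4 arrays were above the floor. The list counted 0 of 6 changed in heat-shocked against untreated wild type. It counted 2 higher and 1 lower in hsp-otd, and 2 higher and 2 lower in hsp-Otx2, against heat-shocked wild type. Of all probe sets 22.5%, 29.3% and 37.2% changed in these comparisons, in that order. Against untreated wild type Glys and Tps1 rose in hsp-otd (by 0.35 and 1.04) and in hsp-Otx2 (by 1.25 and 0.64), and UGP (-2.12) and Pgm1 (-0.32) fell in hsp-Otx2.

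The pentose phosphate pathway branches off before Pfk and makes NADPH and ribose, and 4 of its genes were tested. The transketolase gene CG8036 fell by 1.08 in hsp-Otx2 against heat-shocked wild type (SE 0.09, adjusted p = 9.34e-08), and so did Zw, glucose 6-phosphate dehydrogenase, the first enzyme of the branch (-0.65, SE 0.19, adjusted p = 0.0116). Both were higher in hsp-otd than in hsp-Otx2, by 1.05 (SE 0.08, adjusted p = 4.29e-08) and 0.88 (SE 0.17, adjusted p = 0.000899). Both were also lower in hsp-Otx2 than in untreated wild type (-0.83 and -0.92). Taldo, transaldolase, rose in hsp-otd by 0.87 against heat-shocked wild type (SE 0.21, adjusted p = 0.00627) and by 0.61 against untreated wild type. CG8036 had risen by 0.25 in heat-shocked against untreated wild type (SE 0.08, adjusted p = 0.0424), and by 0.22 in hsp-otd. Ldh had its lowest level in the same line as CG8036 and Zw.

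Of 11 genes for the fates of pyruvate and NADH, 1 rose and 1 fell in heat-shocked against untreated wild type. Pdk, the kinase that switches off pyruvate dehydrogenase, rose by 1.67 (SE 0.23, adjusted p = 5.15e-05), and Pepck2, a gene of phosphoenolpyruvate carboxykinase, fell by 0.48 (SE 0.11, adjusted p = 0.0036). In hsp-otd against heat-shocked wild type 2 rose and 1 fell. These were Pepck2 (0.62, SE 0.11, adjusted p = 0.000689), the mitochondrial glycerophosphate oxidase gene Gpo1 (0.95, SE 0.21, adjusted p = 0.00328) and the mitochondrial malate dehydrogenase gene Mdh2 (-0.66, SE 0.18, adjusted p = 0.0105). In hsp-Otx2 2 rose and 3 fell. Pepck2 fell by 1.25 (SE 0.11, adjusted p = 2.89e-07), the pyruvate dehydrogenase subunit Pdhb by 0.45 and the mitochondrial pyruvate carrier Mpc1 by 0.37, and the cytosolic malate dehydrogenase gene Mdh1 rose by 0.36 (SE 0.07, adjusted p = 0.000604).

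Between the lines 4 of these 11 were higher and 2 lower in hsp-otd. Pepck2 had the largest difference, 1.87 (SE 0.10, adjusted p = 1.3e-09). Mpc1 was higher in hsp-otd (0.35), and Mdh1 (-0.47) and Mdh2 (-0.87) were lower. Pepck2 and Ldh were both lowest in hsp-Otx2. Against untreated wild type 2 rose and 1 fell in hsp-otd, namely Pdk (1.83), Gpo1 (1.46) and Mpc1 (-0.25). In hsp-Otx2 5 rose and 3 fell, with Pdk at 2.23, Pepck2 at -1.73, Mpc1 at -0.59 and Pdhb at -0.52.

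Of 9 regulators known to act on glycolytic genes, none passed between heat-shocked and untreated wild type. The part of these regulators in the enzymes' changes was not tested. The nuclear receptor gene ERR rose by 1.13 in hsp-otd against heat-shocked wild type (SE 0.27, adjusted p = 0.00586). It was the only regulator to rise there, and 3 fell. In the same comparison Hph, the prolyl hydroxylase that marks the hypoxia factor Sima for destruction, fell by 0.42 (SE 0.09, adjusted p = 0.0021), the sugar-sensing factor Mondo by 0.30 (SE 0.08, adjusted p = 0.0076), and sima by 1.60 (SE 0.51, adjusted p = 0.0270) with 1 of 4 arrays above the floor. In hsp-Otx2 none rose and 4 fell: Hph by 1.29 (SE 0.09, adjusted p = 1.66e-08), the ATF4 gene crc by 0.41, sug, a sugar-responsive factor, by 0.70, and bigmax, the partner of Mondo, by 1.53. Between the lines 2 regulators were higher and 3 lower in hsp-otd. Hph (0.87) and crc (0.67) were higher, Mondo was lower (-0.30), and foxo, at the floor in all 4 hsp-otd arrays, was at least 6.48-fold lower there (adjusted p = 0.00612). Relative to untreated wild type Hph (-0.44), Mondo (-0.29) and sug (-0.71) fell in hsp-otd. In hsp-Otx2 Hph (-1.31), crc (-0.52) and sug (-0.89) fell and foxo rose (2.16), with 1 of 5 untreated arrays above the floor.

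**Figure D5:**
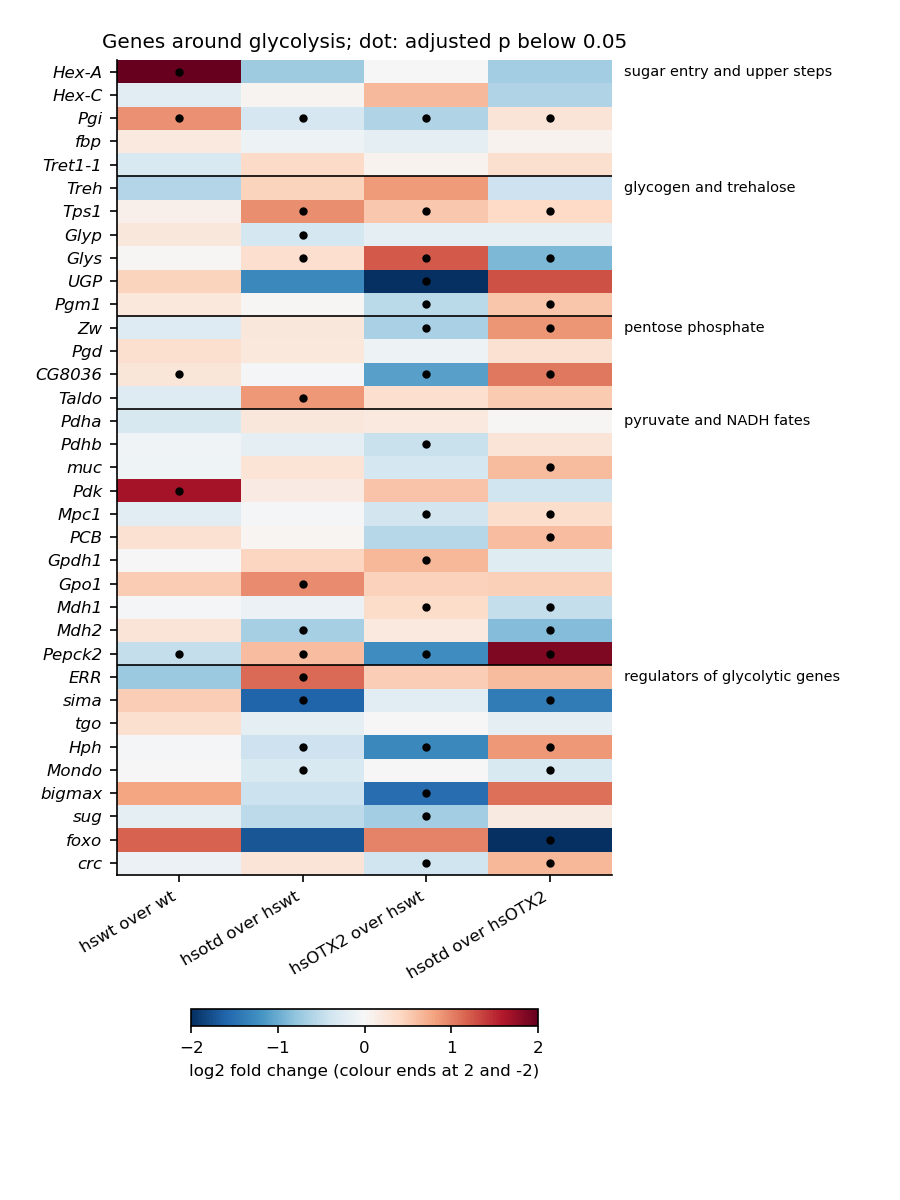
Heat map of log2 fold changes of genes around glycolysis (rows, grouped by list) in 4 comparisons (columns), red for higher and blue for lower, with colour ending at 2 and -2 and a dot where the adjusted p was below 0.05. In the column of hsp-Otx2 over heat-shocked wild type Glys (1.23) is red and CG8036 (-1.08), Pepck2 (-1.25) and Hph (-1.29) are blue.

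Markers of tissues were read beside the enzymes, and their part in the enzymes' changes was not tested. Late epidermis and cuticle markers fell in 8 of 8 in heat-shocked against untreated wild type. Against heat-shocked wild type 6 of these 8 rose and 1 fell in hsp-otd, with a median of 3.14. In hsp-Otx2 5 rose and 2 fell, with a median of 1.71. Of all probe sets 15.8% and 17.5% rose in these comparisons. Their summed intensity was 44602 to 45457 in untreated wild type, 5251 to 7490 in heat-shocked wild type (with 5 of 8 at the floor throughout), 8526 to 9359 in hsp-otd and 5325 to 6772 in hsp-Otx2. Midgut protease genes rose in 5 of 5 in heat-shocked against untreated wild type. Against heat-shocked wild type 4 of 5 rose in hsp-Otx2, while 2 of 5 fell in hsp-otd. Their sums were 1126 to 1983 in untreated wild type, 3860 to 4681 in heat-shocked wild type, 2796 to 3162 in hsp-otd and 18350 to 19319 in hsp-Otx2. Heat-inducible genes rose in 8 of 8 in heat-shocked against untreated wild type, and against heat-shocked wild type 2 of 8 fell in hsp-otd and 0 of 8 changed in hsp-Otx2. Neuron markers (6) changed in 1, 1 and 1 of these 3 comparisons, all upward, and fat body markers (3 tested) in 1 upward, 1 downward and 0. Haemocyte markers (5 tested) counted 1 higher and 2 lower, 1 higher and 1 lower, and 0 higher and 2 lower. Germ line and early-stage markers (6) counted 1 higher and 0 lower, 1 higher and 3 lower, and 2 higher and 2 lower. Between the lines, counted as higher and lower in hsp-otd, neuron markers had 2 and 1, cuticle markers 3 and 0, haemocyte markers 2 and 1, fat body markers 0 and 1, heat-inducible genes 0 and 1, and germ line and early-stage markers 1 and 2.

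The median profile of the 10 enzymes over the 4 group means, each gene centred on its own mean, was 0.05 in untreated wild type, -0.07 in heat-shocked wild type, -0.11 in hsp-otd and 0.15 in hsp-Otx2. PyK lay nearest to it (root-mean-square difference 0.05) and Pglym78 farthest (1.22), and Ldh (0.37) and Eno (0.28) also departed from it. Among 6425 other named genes above the floor in all arrays, those nearest to it were vkg (0.02), Dis3l2 (0.03), mRpL1 (0.03), or (0.04), Ubc84D (0.04) and CG13324 (0.04). The likeness was measured over 4 group means and says only that levels moved by like amounts. The gene vkg, which encodes a collagen IV chain, is also among the haemocyte markers above.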

How the data were processed

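Groups and replicate numbers came from the sample titles. The files hold the authors' deposited intensities on a linear scale, with 18.3% to 24.6% below 0 on an array. Image reading, probe summary and any scaling by the authors are not given in the sources used here. Depth has no meaning for arrays. Probe-set identifiers were matched by stem to a RefSeq gene table (Release 6), where 13072 of 14070 led to 1 symbol, 463 to more than 1 and 503 to none. The 32 controls were left out, and no 2 arrays were identical.

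Intensities were quantile normalized, raised to a floor of 20 and put on the log2 scale. Those exceeding the floor on 3 or more arrays (12301) entered a linear model in limma 3.58.1 (R 4.3.3, 1 coefficient per group over all 16 arrays, eBayes with a trend). Residual degrees of freedom were 12, prior ones 4.07 in the median, and 1737 dim probe sets were not tested. A gene counts by its probe set of highest mean. The fit was tested on simulated data. The enzymes and the gene lists were chosen with earlier results of these data known. All enzymes are named, with up to 4 genes per pathway list and comparison by smallest adjusted p, and the 6 genes nearest to the enzymes' median profile. Pathway lists were sugar entry, paralogues, glycogen and trehalose, pentose phosphate, pyruvate and NADH fates, and regulators. Levels in lists use the same probe-set rule. Alternatives covered normalization, floor, filter, fit, probe-set choice, replicate block, array brightness (added after the data were seen) and leaving out each array. The titles share replicate numbers across groups and do not say what a number marks.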

Additional observations from a re-analysis of the deposited data

Results flagged for a closer look

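Pgk in replicate 2 of untreated wild type read 2822, far below the other 4 arrays of its group, which lay between 3311 and 3478. This was the only such case among the 30 sets of 1 gene and 1 group of 4 or 5 arrays examined, and chance alone singles out about 1 in 20.

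For 5 enzymes the change against heat-shocked wild type differed between the lines, as tested directly by limma between hsp-otd and hsp-Otx2. The difference, hsp-otd minus hsp-Otx2, was -0.74 for Tpi, -0.56 for Gapdh1, -0.67 for Gapdh2, -0.38 for PyK and 0.65 for Ldh. Both changes use the same 3 control arrays, which cancel in the difference.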

How the results depend on the processing

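Under 29 alternative settings the enzymes gave 1194 fold changes, of which 32 lost a call and 28 gained one with the same sign. The sign turned in 66, of which 59 passed neither before nor after, and 1068 kept both sign and call. Counts of changed enzymes were 2 for heat-shocked against untreated wild type, 2 for hsp-otd and 4 for hsp-Otx2 against heat-shocked wild type, 5 between the lines, and 3 for hsp-otd and 2 for hsp-Otx2 against untreated wild type. Without normalization they were 0, 4 (all higher), 3, 1, 0 and 0 in that order. There the sign turned in 18 fold changes, 12 of which passed neither before nor after. The others were, in hsp-otd against heat-shocked wild type, Gapdh2 (0.33), Pgk (0.80), Eno (0.26) and Ldh (0.88), in hsp-Otx2 against heat-shocked wild type Eno (0.063), and in hsp-otd against untreated wild type Pfk (0.053). That setting leaves differences in array brightness in the values, with medians of all probe sets from -0.36 to 0.68. Median scaling turned 12 signs, none of a fold change that passed, and gave 1 for heat-shocked against untreated wild type and 1 for hsp-otd against heat-shocked wild type. Brightness as a covariate gave 1 for each line against heat-shocked wild type, and for hsp-otd it cannot separate brightness from group there. Arrays with a mean below 700 gave 0 for heat-shocked against untreated wild type and 2 for hsp-Otx2 against heat-shocked wild type. Arrays above it gave 5 for hsp-otd against untreated wild type, with Ald1 at -0.22, of the other sign, and so did a fit of those groups only (5). No such subset exists for hsp-otd against heat-shocked wild type. The causes were not tested. Leaving out 1 array gave 2 to 3, 2 to 3, 2 to 4, 4 to 5, 3 to 4 and 2 to 3, and the 2 for hsp-Otx2 came without replicate 3 of heat-shocked wild type.

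Replicate numbers did not pair the arrays: deviations correlated from -0.07 to 0.12 over 21 pairs of the same number and from -0.14 to 0.12 over 74 others. With the replicate block the counts were 2, 2, 4, 5, 3 and 3, the last gaining Gapdh1 (0.36, adjusted p = 0.00171 by limma), and no other call changed. Counts over all probe sets moved by more than 1.5 times in some settings. For heat-shocked against untreated wild type 2770 became 1289 without normalization, 1532 with only these groups fitted and 1214 in arrays below 700. For hsp-otd against heat-shocked wild type 3610 became 1389 with the covariate. For hsp-Otx2 4577 became 2378 without normalization and 2435 in arrays below 700. Between the lines 3630 became 1837 without normalization. Against untreated wild type 3641 became 1951 for hsp-otd without normalization, and 4917 became 2683 for hsp-Otx2, or 3035 in arrays below 700.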
